A study of Mus musculus with 16 samples.

Results

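Creatine metabolism was described in the mouse thyroid through 5 genes of the 21640 in the count table: the kinases Ckb and Ckmt1, the synthesis enzymes Gatm and Gamt, and the transporter Slc6a8. They were chosen by name, and the choice was set by Ckb, which ranked among the genes of lowest p in both diet comparisons. No numeric threshold was used. The Ckb values are therefore given as a description without a test, whereas the other 4 genes were tested. The libraries came from thyroids of male, wild-type C57Bl/6J mice, all 8 weeks old when the diets began. Control mice received the chow diet (CD), and the others a high-fat diet with sucrose water (HF+SD), for 3 or 6 weeks. Each of the 4 groups held 4 mice with 1 library each, and no group carried a transgene or a deletion. The study asked how overnutrition alters thyroidal gene expression.

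Creatine is made in a pair of steps. The first joins the amidino group of arginine to glycine, the second adds a methyl group from S-adenosylmethionine, and a sodium- and chloride-dependent carrier takes finished creatine up into cells. Creatine kinases move phosphate between ATP and creatine, one isoform in the cytosol beside another in the space between the mitochondrial membranes, so that phosphocreatine buffers ATP and carries energy from mitochondria to places of use. Muscle has its own cytosolic and mitochondrial isoforms, while brain, epithelia and many other tissues use the brain-type and the ubiquitous mitochondrial ones.

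Library totals ran from 30025256 to 48508653 counts. Levels are given as CPM, counts scaled to a common library size, which was set within a time point by TMM, the trimmed mean of M-values, with the SD over 4 mice. All 10 thyrocyte markers checked, Tg and Pax8 among them, were detected in every group, and their summed level was 67920 to 314500 CPM per library. Skeletal muscle transcripts differed between the CD thyroids of 6 weeks, where 12 muscle genes made up 9.98% of the counts of M45, 7.34% of M48, 2.39% of M43 and 0.0684% of M22. The same genes took 0.0825% to 0.289% in the HF+SD thyroids of 6 weeks and at most 0.00547% in any thyroid of 3 weeks. The library names of each time point begin with a number of their own, so time and the set of libraries cannot be told apart and levels were not tested between times. In whole tissue, fewer cells of a type and less RNA per cell cannot be told apart.

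Ckb (ENSMUSG00000001270.10) encodes the brain-type cytosolic creatine kinase. Its RefSeq promoter window is shown together with both windows of Ckmt1 (ENSMUSG00000000308.15), the ubiquitous mitochondrial isoform, because these 2 kinases were both higher in HF+SD mice at both times. Each window runs from 250 bases before to 50 bases after a start site, 5′ to 3′ on the strand of the gene, in build GRCm38.p6 and not in the build of the counts. Capitals mark the CCAAT box, the TATA box with the letters TATAAA, and the nuclear receptor half-site AGGTCA, each read on both strands.
Ckb, chr12:111672289-111672588, minus strand: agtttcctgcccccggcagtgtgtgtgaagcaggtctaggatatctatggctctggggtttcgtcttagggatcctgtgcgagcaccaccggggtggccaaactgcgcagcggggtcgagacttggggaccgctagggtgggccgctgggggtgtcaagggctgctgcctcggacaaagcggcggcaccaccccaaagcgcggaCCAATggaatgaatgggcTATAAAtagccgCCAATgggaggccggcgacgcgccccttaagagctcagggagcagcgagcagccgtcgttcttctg
Ckmt1, first start site, chr2:121357526-121357825, plus strand: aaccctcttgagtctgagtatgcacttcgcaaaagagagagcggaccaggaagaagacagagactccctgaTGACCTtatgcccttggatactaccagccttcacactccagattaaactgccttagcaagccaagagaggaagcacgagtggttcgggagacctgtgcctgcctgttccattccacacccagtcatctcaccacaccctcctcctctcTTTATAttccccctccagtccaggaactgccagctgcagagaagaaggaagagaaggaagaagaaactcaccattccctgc
Ckmt1, second start site, chr2:121358360-121358659, plus strand: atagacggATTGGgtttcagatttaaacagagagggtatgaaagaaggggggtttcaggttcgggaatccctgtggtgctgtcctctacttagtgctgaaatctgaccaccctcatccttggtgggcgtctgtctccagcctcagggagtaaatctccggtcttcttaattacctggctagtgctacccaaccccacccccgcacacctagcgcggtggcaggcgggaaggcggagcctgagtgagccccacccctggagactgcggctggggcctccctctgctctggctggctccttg
The Ckb window held CCAAT at -46 and -16 and TATAAA at -28, counted from the start site to the first base of the motif. Both motifs together occur in 5.31% of the 32851 windows of the same length in the genome. The first Ckmt1 window held AGGTCA, a nuclear receptor half-site, at -179 and TATAAA at -31, both on the opposite strand, and the second held CCAAT at -242, also on the opposite strand. AGGTCA occurs in 16.3% of all windows, CCAAT in 37.4% and TATAAA in 13.6%. Neither TGACG, the core of a cAMP response element (20.8% of windows), nor the E-box CACGTG (7.15%) was found in a window of Ckb, Ckmt1, Gatm or Gamt. This says only that these letters are not in these windows. The Gatm window held CCAAT at -190 and -55 and AGGTCA at -156, and that of Gamt held 4 GC boxes, GGGCGG, which 35.7% of windows hold. GC content was 63.0% in the Ckb window and 52.0% and 58.3% in those of Ckmt1, against a median of 52.7%.

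Ckb was expressed at a low and even level in CD mice and at a level several times higher in HF+SD mice. At 3 weeks its level was 21.4, 21.7, 23.7 and 14.9 CPM in CD mice M53, M54, M55 and M96. In HF+SD mice M7, M19y, M20y and M31 it was 142, 152, 144 and 144 CPM. The groups lay far apart, with the 4 HF+SD mice within a few percent of one another and 1 CD mouse, M96, below the other 3. The means were 20.4 ± 3.84 and 146 ± 4.32 CPM, a 7.13-fold difference, and the fitted log2 fold change was 2.83 (SE 0.14). At 6 weeks CD mice M22, M43, M45 and M48 gave 21.6, 18.7, 18.1 and 23.2 CPM. HF+SD mice M5, M18, M34 and M35 gave 187, 169, 216 and 212 CPM. Again no HF+SD mouse came near a CD mouse. The means were 20.4 ± 2.40 and 196 ± 21.9 CPM, a 9.61-fold difference, with a log2 fold change of 3.26 (SE 0.15).

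By p-value, Ckb stood at place 3 of 17238 tested genes at 3 weeks and place 1 of 18249 at 6 weeks, which is what chose it. By the size of the fold change it stood at place 70 among the higher genes at 3 weeks and 107 at 6 weeks. Leaving out any 1 mouse gave log2 fold changes of 2.71 to 2.92 at 3 weeks and 3.19 to 3.34 at 6 weeks. The 3 CD thyroids of 6 weeks with many muscle reads had 18.1 to 23.2 CPM of Ckb beside 21.6 CPM in M22, and against M22 alone the log2 fold change was 3.18.

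**Figure D1:**
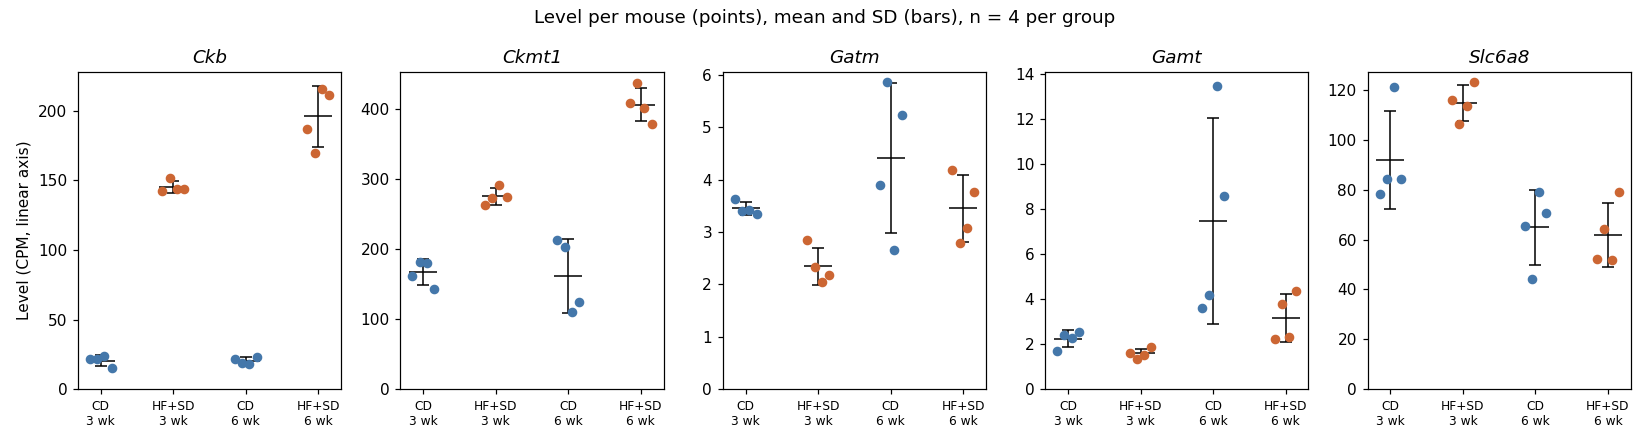
Levels of the 5 genes in CPM on linear axes that start at 0, with 1 point per mouse, the mean as a long tick and the SD as bars, in the 4 groups of 4 mice. Ckb and Ckmt1 separate the diets at both times, Gatm separates them at 3 weeks, and Gamt and Slc6a8 overlap at both.

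Ckmt1 rose at both times, by less than Ckb. At 3 weeks CD mice M53, M54, M55 and M96 had 162, 182, 180 and 142 CPM. The HF+SD mice M7, M19y, M20y and M31 had 262, 272, 291 and 274 CPM. The highest CD mouse was well below the lowest HF+SD mouse. Its log2 fold change was 0.72 (SE 0.09, adjusted p = 0.00106 by edgeR's quasi-likelihood test with Benjamini-Hochberg adjustment over 17238 genes), and the exact two-sided permutation test gave p = 0.0286, the smallest that 4 mice against 4 allow. In this comparison 9.07% of all tested genes were called higher (adjusted p below 0.05) and 5.78% lower, 14.9% in all.

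At 6 weeks Ckmt1 was at 212, 202, 109 and 124 CPM in CD mice M22, M43, M45 and M48. It was at 407, 436, 401 and 378 CPM in HF+SD mice M5, M18, M34 and M35. The groups did not overlap, and the CD group fell into a higher and a lower pair, the lower pair being the 2 thyroids with most muscle reads. In the fit the log2 fold change was 1.33 (SE 0.23, adjusted p = 0.00504 by edgeR's quasi-likelihood test with Benjamini-Hochberg adjustment, exact permutation p = 0.0286), where 12.0% of all genes tested at 6 weeks were called higher and 9.55% lower, 21.5% in all. With a muscle score as a covariate it was 0.97 (adjusted p = 0.0182 by the same test), and with M22 as the only CD mouse 0.93. Ckmt1 shares 10 of its 2496 exon bases with Strc on the opposite strand.

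Ckmt1 kept its call without any 1 mouse. With DESeq2 size factors in edgeR it was called too (adjusted p = 0.00118 at 3 weeks and 0.00439 at 6 weeks by the quasi-likelihood test). Its calls were lost when scaled to thyroid genes. Relative to 9 thyrocyte genes in place of TMM, its log2 fold change was 0.32 at 3 weeks and 0.50 at 6 weeks, with adjusted p-values of 0.104 and 0.0764 by edgeR's quasi-likelihood test. Relative to 4 thyroid transcription factor genes it was 0.55 and 1.11 (adjusted p = 0.333 and 0.0902 by the same test), so the direction held while the calls were lost. These scalings moved the median of all genes by -0.40 and -0.88 and by -0.16 and -0.23, and Ckb stayed at 2.43 and 2.37 on the first and at 2.65 and 3.04 on the second. On the first, 6837 of 17238 genes were called lower at 3 weeks and 12440 of 18249 at 6 weeks. On the second, 440 genes were called higher and 344 lower at 3 weeks, and 724 and 1162 at 6 weeks. On the TMM scale these counts were 1564 and 996 at 3 weeks, and 2184 and 1743 at 6 weeks. The 9 genes were Pax8, Nkx2-1, Foxe1, Hhex, Iyd, Slc26a4, Duoxa1, Duoxa2 and Cdh16, and the 4 were the factors Pax8, Nkx2-1, Foxe1 and Hhex. On the TMM scale at 3 weeks, Slc26a4 had a log2 fold change of 3.00 and Duoxa1 one of -2.37.

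Because the levels of different genes can be set side by side only per length, both kinases were also expressed per kb of exon. Per kb, the Ckb level was 10.5 ± 1.12% of the Ckmt1 level in CD mice and 45.7 ± 2.40% in HF+SD mice at 3 weeks. At 6 weeks it was 11.8 ± 4.04% and 42.0 ± 6.77%. Ckmt1 thus stayed the more abundant of the pair in all 16 thyroids, while the cytosolic isoform took a larger part of the pair in HF+SD mice. The sum of both was 73.8 ± 8.64 CPM per kb in CD mice and 160 ± 5.04 in HF+SD mice at 3 weeks, and 71.9 ± 21.2 and 230 ± 4.92 at 6 weeks. As Ckb entered these ratios, they are given without a test.

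The muscle isoforms behaved otherwise. At 6 weeks Ckm, the cytosolic creatine kinase of muscle, was at 74.0, 3118, 19583 and 11065 CPM in CD mice M22, M43, M45 and M48. In HF+SD mice M5, M18, M34 and M35 it was at 363, 95.1, 99.0 and 170 CPM. The groups overlapped, since M22 lay below all HF+SD mice, and the order of the CD mice was that of their muscle reads. The log2 fold change was -5.54 (SE 1.33, adjusted p = 0.0194 by edgeR's quasi-likelihood test, exact permutation p = 0.143), and against M22 alone it was 1.29. Ckmt2, the mitochondrial isoform of striated muscle, also fell, with a log2 fold change of -4.98 (SE 1.36, adjusted p = 0.0304 in the same test, exact permutation p = 0.114), with overlap, and was at 1.57 against M22 alone. With the muscle covariate they were at -0.30 and -0.21 (adjusted p = 0.226 and 0.823). The call of Ckm was lost without M18, M34 or M35 (adjusted p = 0.0592 to 0.0625), and that of Ckmt2 without M45, M48, M18, M34 or M35 (adjusted p = 0.0596 to 0.0850). The summed level of the 12 muscle genes ran from 589 to 139100 CPM in CD mice and from 798 to 2763 CPM in HF+SD mice at 6 weeks. All 12 were called lower, where 9.55% of all genes were. At 3 weeks, when muscle reads were few, Ckm had at most 5.06 CPM and Ckmt2 at most 0.909 CPM in any thyroid, and neither passed the test (adjusted p = 0.538 and 0.0653), though Ckmt2 did without M96 (adjusted p = 0.00938), by DESeq2 (0.0262) and relative to 9 thyrocyte genes (0.0417) or 4 factors (0.0499).

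**Figure D2:**
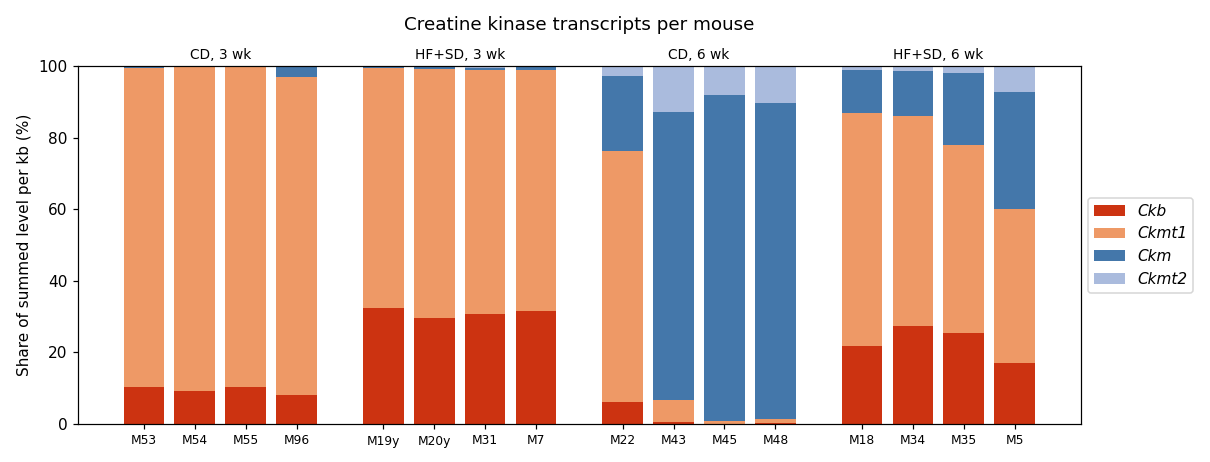
Share of each creatine kinase in the summed level per kb of exon of Ckb, Ckmt1, Ckm and Ckmt2, with 1 bar per mouse in the 4 groups. At 3 weeks the Ckb share was 9.42 ± 1.02% in CD mice and 31.1 ± 1.18% in HF+SD mice, and at 6 weeks Ckm took 80.5%, 91.2% and 88.4% in CD mice M43, M45 and M48 but 21.0% in M22.

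The synthesis genes went the other way or did not pass the test. Gatm (ENSMUSG00000027199.15), which encodes the arginine:glycine amidinotransferase of the first step, was at 3.64, 3.41, 3.42 and 3.34 CPM in CD mice M53, M54, M55 and M96 at 3 weeks. It was at 2.85, 2.33, 2.04 and 2.18 CPM in HF+SD mice M7, M19y, M20y and M31. All HF+SD mice lay below all CD mice. The fitted log2 fold change was -0.56 (SE 0.15, adjusted p = 0.0366 by edgeR's quasi-likelihood test, exact permutation p = 0.0286). This call rested on 79 to 147 counts per library, and it was lost without any 1 of the mice M53, M54, M96, M19y, M20y and M31 (adjusted p = 0.0556 to 0.107 by the same test), in 1 fit of all 16 libraries (adjusted p = 0.132), with the muscle covariate (adjusted p = 0.125) and relative to 4 thyroid transcription factor genes (-0.69, adjusted p = 0.237).

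At 6 weeks Gatm was at 3.90, 5.87, 2.66 and 5.23 CPM in CD mice M22, M43, M45 and M48. In HF+SD mice M5, M18, M34 and M35 it was at 4.19, 2.79, 3.08 and 3.76 CPM. The lowest of all 8 mice was a CD mouse, M45, and the groups overlapped. Its log2 fold change was -0.35 (SE 0.27) and did not pass the test (adjusted p = 0.368 by edgeR's quasi-likelihood test, exact permutation p = 0.371). Relative to 9 thyrocyte genes, Gatm and Gamt were called lower at 6 weeks, at -1.25 (adjusted p = 0.00517) and -2.22 (adjusted p = 0.00461 by the same test). On that scale 12440 of 18249 genes were called lower at 6 weeks. Relative to the 4 factors Gatm was at -0.63 (adjusted p = 0.375) and Gamt at -1.55 (adjusted p = 0.0489).

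Gamt (ENSMUSG00000020150.14), the guanidinoacetate methyltransferase of the second step, was at 1.71, 2.40, 2.29 and 2.56 CPM in CD mice M53, M54, M55 and M96 at 3 weeks. It was at 1.59, 1.36, 1.53 and 1.86 CPM in HF+SD mice M7, M19y, M20y and M31. Most CD mice were higher, but M53 lay within the HF+SD range. In the fit the log2 fold change was -0.50 (SE 0.19, adjusted p = 0.107 by edgeR's quasi-likelihood test, exact permutation p = 0.0571). Relative to 9 thyrocyte genes it was called lower, at -0.89 (adjusted p = 0.0121 by the same test), as were 6837 of 17238 genes.

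At 6 weeks Gamt was at 3.62, 4.16, 13.5 and 8.59 CPM in CD mice M22, M43, M45 and M48. It was at 2.24, 3.76, 2.30 and 4.35 CPM in HF+SD mice M5, M18, M34 and M35. The 2 high CD mice were those with most muscle reads, and the other 2 lay within the HF+SD range. The log2 fold change was -1.23 (SE 0.44, adjusted p = 0.0737 by edgeR's quasi-likelihood test, exact permutation p = 0.143). Given the muscle covariate it was -0.34 (adjusted p = 0.663), and against M22 alone -0.20. Without M22 or without M43 it was called lower, at -1.46 (adjusted p = 0.0232) and -1.47 (adjusted p = 0.0499). DESeq2 and the fit of all 16 libraries did call Gamt lower, at -1.28 (adjusted p = 0.0160) and -1.30 (adjusted p = 0.0126 by edgeR). The plot of creatine genes against muscle transcripts shows these mice beside Ckm, Ckmt1 and Ckb.

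**Figure D3:**
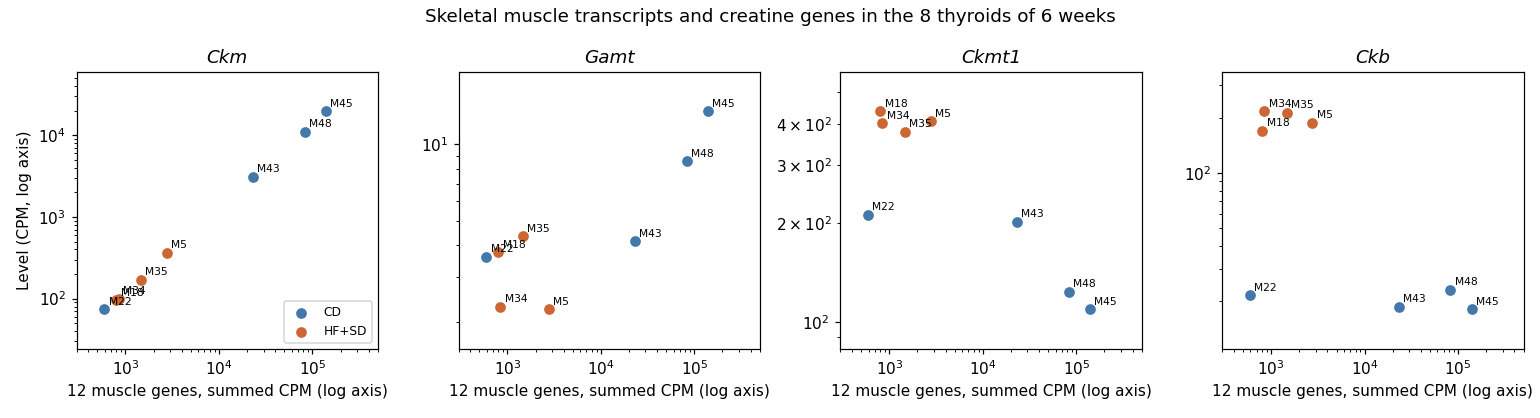
Levels in CPM of Ckm, Gamt, Ckmt1 and Ckb against the summed CPM of 12 skeletal muscle genes in the 8 thyroids of 6 weeks, on log axes, with each point named by its mouse. Ckm follows the muscle sum across both diets, Gamt is high in M45 and M48, Ckmt1 is lowest in these 2 mice, and Ckb lies at 18.1 to 23.2 CPM in CD mice over the whole range of muscle sums.

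Slc6a8 (ENSMUSG00000019558.15), the plasma membrane creatine transporter, was not called at either time. At 3 weeks it was at 78.4, 84.3, 121 and 84.5 CPM in CD mice M53, M54, M55 and M96. In HF+SD mice M7, M19y, M20y and M31 it was at 116, 106, 114 and 123 CPM. M55 stood inside the HF+SD range while the other 3 CD mice were below it. The fitted log2 fold change was 0.32 (SE 0.13) and did not pass the test (adjusted p = 0.137 by edgeR's quasi-likelihood test, exact permutation p = 0.114). Without M55 it was 0.48 (adjusted p = 0.00164 by the same test), and relative to 9 thyrocyte genes it turned to -0.10.

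At 6 weeks Slc6a8 was at 65.3, 44.2, 79.1 and 70.7 CPM in CD mice M22, M43, M45 and M48. It was at 52.4, 64.3, 51.8 and 79.3 CPM in HF+SD mice M5, M18, M34 and M35. The groups spanned nearly the same range. Its log2 fold change was -0.07 (SE 0.21, adjusted p = 0.848 by edgeR's quasi-likelihood test, exact permutation p = 0.83). It turned to 0.013 with the muscle covariate, and was -0.98 relative to 9 thyrocyte genes (adjusted p = 0.00980 by the same test). On the latter scale 12440 of 18249 genes were called lower.

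Per kb of exon, the order of the 5 genes in CD mice at 3 weeks was Ckmt1 at 66.7 ± 7.41, Slc6a8 at 17.7 ± 3.78, Ckb at 7.05 ± 1.32, Gamt at 1.55 ± 0.256 and Gatm at 1.15 ± 0.0433 CPM per kb. On the HF+SD at 3 weeks Ckb, at 50.3 ± 1.49 CPM per kb, stood above Slc6a8, at 22.03 ± 1.36 CPM per kb. Gamt and Gatm were the lowest, with ranges that overlapped each other in both groups, at 1.10 ± 0.145 and 0.783 ± 0.118 CPM per kb in HF+SD mice. At 6 weeks the order in HF+SD mice was the same, from Ckmt1 at 162 ± 9.58 and Ckb at 67.7 ± 7.55 to Slc6a8 at 11.9 ± 2.48, Gamt at 2.19 ± 0.734 and Gatm at 1.15 ± 0.212 CPM per kb. On the CD at 6 weeks, Slc6a8 at 12.4 ± 2.86, Ckb at 7.05 ± 0.828 and Gamt at 5.17 ± 3.18 CPM per kb were closer, and the ranges of Ckb and Gamt overlapped.

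Slc16a12, a creatine exporter, and Alpl, a tissue-nonspecific phosphatase that can cleave phosphocreatine, were measured at low levels and were not called at either time. Slc16a12 was at 2.00 to 4.35 CPM in CD mice and 1.51 to 2.56 CPM in HF+SD mice at 3 weeks, with a log2 fold change of -0.55 (SE 0.25, adjusted p = 0.171 by edgeR's quasi-likelihood test), and at 6 weeks it was at -0.39 (SE 0.24, adjusted p = 0.265). It was called lower with the muscle covariate at 3 weeks, at -0.94 (adjusted p = 0.0396), and relative to 9 thyrocyte genes at both times, at -0.95 (adjusted p = 0.0224) and -1.21 (adjusted p = 0.00236). Alpl had log2 fold changes of 0.075 (SE 0.20, adjusted p = 0.83) and -0.28 (SE 0.37, adjusted p = 0.624) in the same tests. Relative to 9 thyrocyte genes it was called lower at 6 weeks, at -1.27 (adjusted p = 0.0265), while with the muscle covariate it was at 0.54. On the 9-gene scale 6837 of 17238 genes were called lower at 3 weeks and 12440 of 18249 at 6 weeks.

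Whether the diet effect differed between 3 and 6 weeks was tested as an interaction in the 16 libraries for the 4 genes other than Ckb. Since each time has its own set of libraries, a difference between times cannot be told apart from one between these sets. The sets also differed in muscle reads. The 6-week log2 fold change exceeded that of 3 weeks by 0.56 for Ckmt1 (SE 0.24, adjusted p = 0.178 by edgeR's quasi-likelihood test) and by 0.15 for Gatm (SE 0.30, adjusted p = 0.808). For Gamt the difference was -0.80 (SE 0.52, adjusted p = 0.384) and for Slc6a8 -0.44 (SE 0.28, adjusted p = 0.367). No difference passed the test, where 0.0792% of all genes did, although Ckmt1 had an unadjusted p of 0.0319. Without M22 the difference of Ckmt1 was called, at 0.74 (adjusted p = 0.0264), and with the muscle covariate it was 0.038.

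The wider pathway was read from lists of genes that supply arginine, glycine and methyl groups, of adenylate kinases, and of carriers that exchange nucleotides across the mitochondrial membranes. With the muscle kinases, Slc16a12 and Alpl, 54 genes other than the 5 were in the table. At 3 weeks 50 of them were tested, 6 rose and 2 fell at an adjusted p below 0.05 (9.07% and 5.78% of all genes), and the median log2 fold change was 0.027 against -0.0083 for all genes. At 6 weeks 51 were tested, 6 rose and 9 fell (12.0% and 9.55% of all genes), and the median was -0.28 against -0.011. With a log2 fold change beyond 1 in size as well, 4 were higher and 1 lower at 3 weeks (3.25% and 1.40% of all genes, 4.66% together), and 6 were higher and 6 lower at 6 weeks (6.64% and 6.01% of all genes, 12.6% together). By the same rule but relative to 9 thyrocyte genes, 3 were higher and 33 lower at 6 weeks, where 40.6% of all genes were lower. Gldc, Ak5 and Slc25a31 had too few counts at both times, and Ak9 at 3 weeks.

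**Figure D4:**
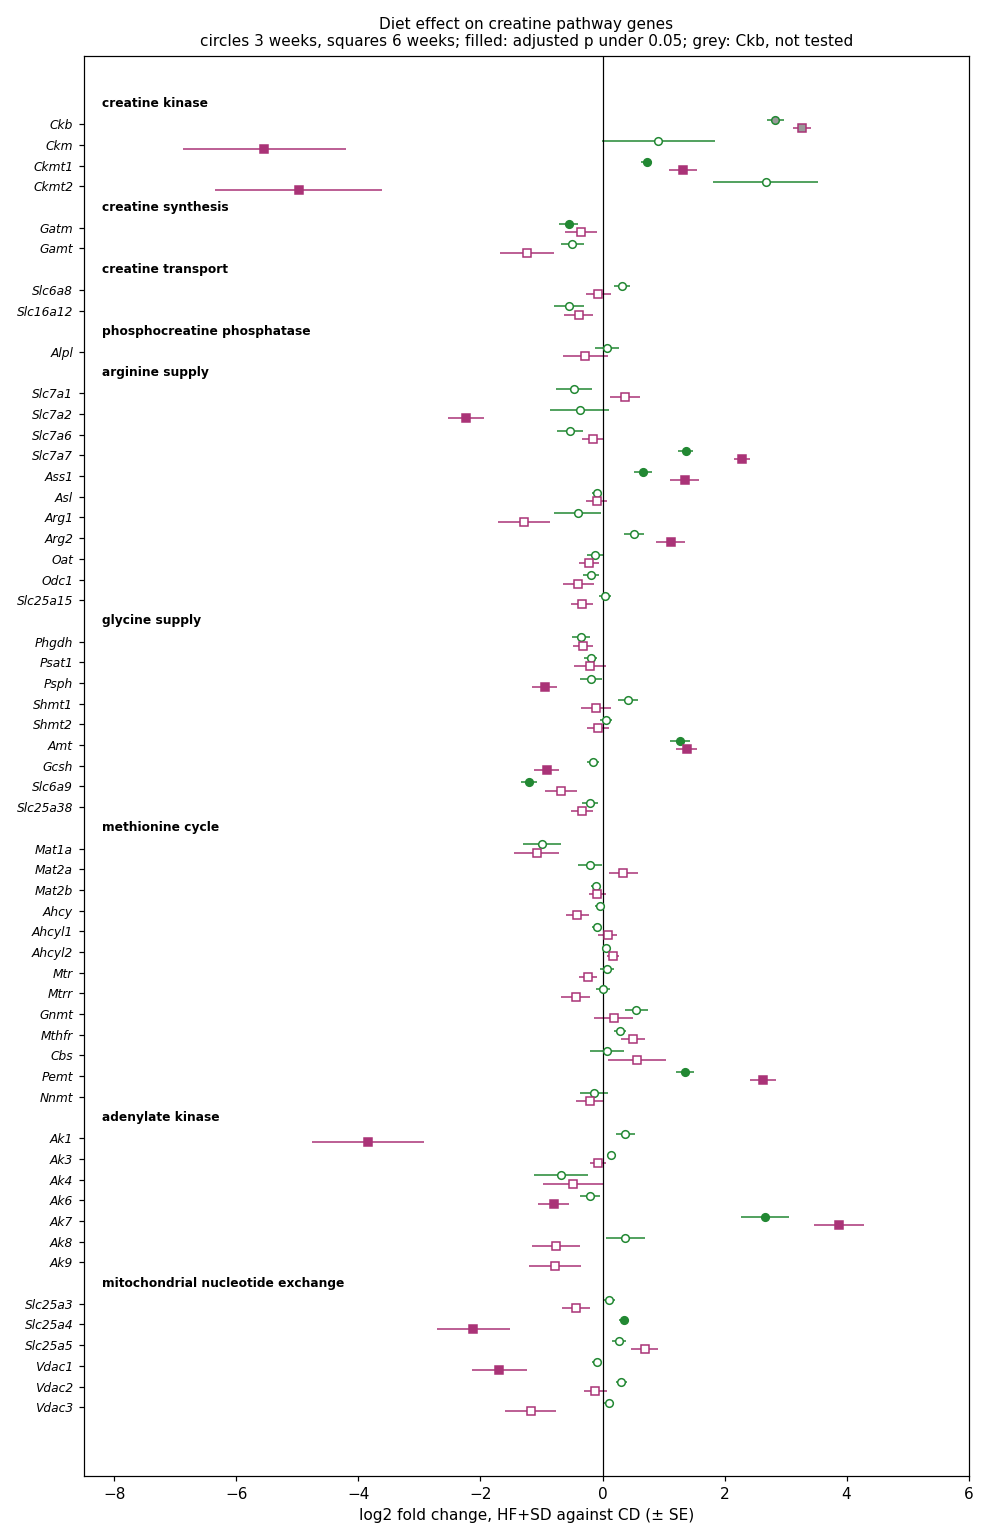
Log2 fold changes of HF+SD against CD with their SE for the genes of the creatine pathway reported here, by role, with circles for 3 weeks and squares for 6 weeks. Filled symbols passed an adjusted p of 0.05, open ones did not, and grey ones mark Ckb, which was not tested. Slc7a7, Pemt, Amt, Ass1 and Ak7 were higher at both times, and Ckm, Ckmt2, Ak1, Slc25a4 and Vdac1 were lower at 6 weeks.

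Of 11 arginine genes, 2 rose at 3 weeks and none fell, and at 6 weeks 3 rose and 1 fell. Of all genes, 9.07% rose and 5.78% fell at 3 weeks, and 12.0% and 9.55% at 6 weeks. Slc7a7, the light chain of a transporter that exchanges arginine and lysine for neutral amino acids, was at 7.25, 7.56, 6.27 and 5.44 CPM in CD mice M53, M54, M55 and M96 at 3 weeks. It was at 15.7, 16.4, 17.6 and 18.4 CPM in HF+SD mice M7, M19y, M20y and M31. At 6 weeks the CD mice had 5.23 to 6.31 CPM and the HF+SD mice 26.1 to 31.8 CPM. The groups were far apart at both times, with log2 fold changes of 1.36 (SE 0.12, adjusted p = 0.000274) and 2.29 (SE 0.13, adjusted p = 0.000103 by edgeR's quasi-likelihood test).

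Ass1, argininosuccinate synthase, rose by 0.66 on the log2 scale at 3 weeks (SE 0.15, adjusted p = 0.0196 by edgeR's quasi-likelihood test) and by 1.34 at 6 weeks (SE 0.24, adjusted p = 0.00626). Its 3-week call was lost without M19y or M31 (adjusted p = 0.0579 and 0.0570), in 1 fit of all 16 libraries (adjusted p = 0.0663), and relative to 9 thyrocyte genes (0.27, adjusted p = 0.227) or 4 factors (0.51, adjusted p = 0.347). Relative to 9 thyrocyte genes its 6-week value was 0.51 (adjusted p = 0.0962). Arg2, the mitochondrial arginase, which uses arginine, was at 0.51 at 3 weeks (adjusted p = 0.0620, but 0.00193 without M55, 0.0316 by DESeq2 and 0.0284 with the muscle covariate) and rose by 1.12 at 6 weeks (SE 0.23, adjusted p = 0.0114). The 6-week call of Arg2 was lost relative to 9 thyrocyte genes (0.29, adjusted p = 0.249) or 4 factors (0.92, adjusted p = 0.129) and with the muscle covariate (0.75, adjusted p = 0.0569). Against M22 alone the 6-week values were 0.94 for Ass1 and 0.70 for Arg2. Slc7a2, a cationic amino acid transporter, was at 16.2 to 37.4 CPM in CD mice and 4.43 to 7.01 CPM in HF+SD mice at 6 weeks, a fall of 2.24 on the log2 scale (SE 0.30, adjusted p = 0.00134). It remained called lower with the muscle covariate, at -1.76 (adjusted p = 0.00295). At 3 weeks its groups overlapped, with a log2 fold change of -0.37 (adjusted p = 0.639).

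Among 9 glycine genes, 1 rose and 1 fell at 3 weeks and 1 rose and 2 fell at 6 weeks, where 14.9% and 21.5% of all genes were called in either direction. Amt, the aminomethyltransferase of the glycine cleavage system, was the gene that rose at both. At 3 weeks it was at 23.2, 36.5, 22.3 and 21.3 CPM in CD mice M53, M54, M55 and M96 and at 58.7 to 66.9 CPM in HF+SD mice. In the fit the log2 fold change was 1.27 (SE 0.16, adjusted p = 0.00121 by edgeR's quasi-likelihood test), and at 6 weeks it was 1.38 (SE 0.17, adjusted p = 0.000903). Slc6a9, the glycine transporter GlyT1, was at 34.9, 34.9, 50.8 and 46.6 CPM in CD mice M53, M54, M55 and M96 at 3 weeks and at 17.4 to 18.9 CPM in HF+SD mice. It fell by 1.21 on the log2 scale (SE 0.13, adjusted p = 0.000598 by edgeR's quasi-likelihood test). At 6 weeks the groups again did not overlap, but the difference of -0.68 did not pass the test (SE 0.27, adjusted p = 0.0974). It was called lower in 1 fit of all 16 libraries (-0.74, adjusted p = 0.0191) and with the muscle covariate (-1.05, adjusted p = 0.0160). It was also called lower relative to 9 thyrocyte genes (-1.49, adjusted p = 0.00122), where 12440 of 18249 genes were. Against M22 alone Slc6a9 was at -1.38, and without M22 it was -0.34 (adjusted p = 0.154). Psph and Gcsh, named here after their values were seen, fell at 6 weeks by 0.94 and 0.92 on the log2 scale (adjusted p = 0.0130 and 0.0137 by the same test). With the muscle covariate they were at -0.53 and -0.46 (adjusted p = 0.0848 and 0.0747), and against M22 alone at -0.44 and -0.35. Relative to the 4 factors Gcsh was not called (adjusted p = 0.0584).

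Of 13 genes of the methionine cycle and of methyl transfer, 1 was called at either time, where 14.9% of all genes were called at 3 weeks and 21.5% at 6 weeks. Pemt, which methylates phosphatidylethanolamine and draws on the same methyl donor as Gamt, was at 3.55 to 5.70 CPM in CD mice and 11.6 to 13.1 CPM in HF+SD mice at 3 weeks. At 6 weeks the ranges were 4.43 to 8.01 CPM and 34.8 to 45.1 CPM. The groups lay apart at both times, and the log2 fold changes were 1.35 (SE 0.15, adjusted p = 0.000627) and 2.63 (SE 0.21, adjusted p = 0.000163 by edgeR's quasi-likelihood test). The enzymes that make S-adenosylmethionine, Mat1a and Mat2a, were not called at either time.

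Adenylate kinases interconvert adenine nucleotides beside the creatine kinase system. At 6 weeks 1 of 8 rose and 2 fell, where 12.0% of all genes rose and 9.55% fell. Ak7, an isoform of motile cilia, was at 7.65, 9.05, 19.1 and 3.64 CPM in CD mice M53, M54, M55 and M96 at 3 weeks and at 59.3 to 67.9 CPM in HF+SD mice. At 6 weeks it was at 4.29 to 13.9 CPM in CD mice and 77.0 to 158 CPM in HF+SD mice. It rose by 2.67 (SE 0.39, adjusted p = 0.00240) and 3.88 (SE 0.41, adjusted p = 0.000444 by edgeR's quasi-likelihood test) on the log2 scale. Airway and salivary gland markers were read as well, 6 of 7 in the table and none at 0 in a whole group. They summed to 1.49 to 37.4 CPM in CD mice and 17.6 to 46.7 CPM in HF+SD mice at 3 weeks. At 6 weeks the sums were 33.6 to 146 and 474 to 2046 CPM. Among these 6 markers, 1 was called higher at 3 weeks and 2 at 6 weeks, and none lower. Of all genes, 9.07% and 12.0% were called higher. The part of these markers in the Ak7 result was not tested. Ak6, named here after its values were seen, fell by 0.80 at 6 weeks (SE 0.25, adjusted p = 0.0491 by the same test). This call was lost without M45, M48 or any HF+SD mouse (adjusted p = 0.0794 to 0.120), and with the muscle covariate the value was -0.25 (adjusted p = 0.477).

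The remaining genes that fell at 6 weeks overlapped between groups and were highest in the CD mice with muscle reads. Ak1, an adenylate kinase abundant in muscle, had 18.5, 148, 839 and 491 CPM in CD mice M22, M43, M45 and M48, against 21.8 to 33.8 CPM in HF+SD mice. Slc25a4, the ADP/ATP carrier of heart and muscle, had 309, 959, 3477 and 2255 CPM, against 385 to 423 CPM. Vdac1, a channel of the mitochondrial outer membrane, had 364, 693, 2044 and 1341 CPM, against 324 to 367 CPM. In M22, each lay within or below the HF+SD range. The log2 fold changes were -3.84 for Ak1, -2.12 for Slc25a4 and -1.69 for Vdac1, with adjusted p-values of 0.0185, 0.0346 and 0.0283 by edgeR's quasi-likelihood test, and with the muscle covariate -0.38, -0.12 and -0.38, none of them called. The call of Ak1 was lost without M18, M34 or M35 (adjusted p = 0.0563 to 0.0603), and those of Slc25a4 and Vdac1 without M45, M48 or any HF+SD mouse (adjusted p = 0.0567 to 0.0901). At 3 weeks Slc25a4 rose by 0.35 (SE 0.07, adjusted p = 0.0110 by the same test), which turned to -0.043 relative to 9 thyrocyte genes and was not called in 1 fit of all 16 libraries (adjusted p = 0.712) or relative to the 4 factors (0.20, adjusted p = 0.726).

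In edgeR's interaction test 0 of 51 genes of these lists were called, where 0.0792% of all genes were. At an unadjusted p below 0.05 there were 15, for which no share of all genes is given. DESeq2 called 10 of the 51, and 10.4% of all genes. Time and the set of libraries cannot be told apart in either test. Pemt (difference 1.23, adjusted p = 0.0512) and Slc7a7 (difference 0.87, adjusted p = 0.0512) came closest to the threshold in edgeR.

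**Figure D5:**
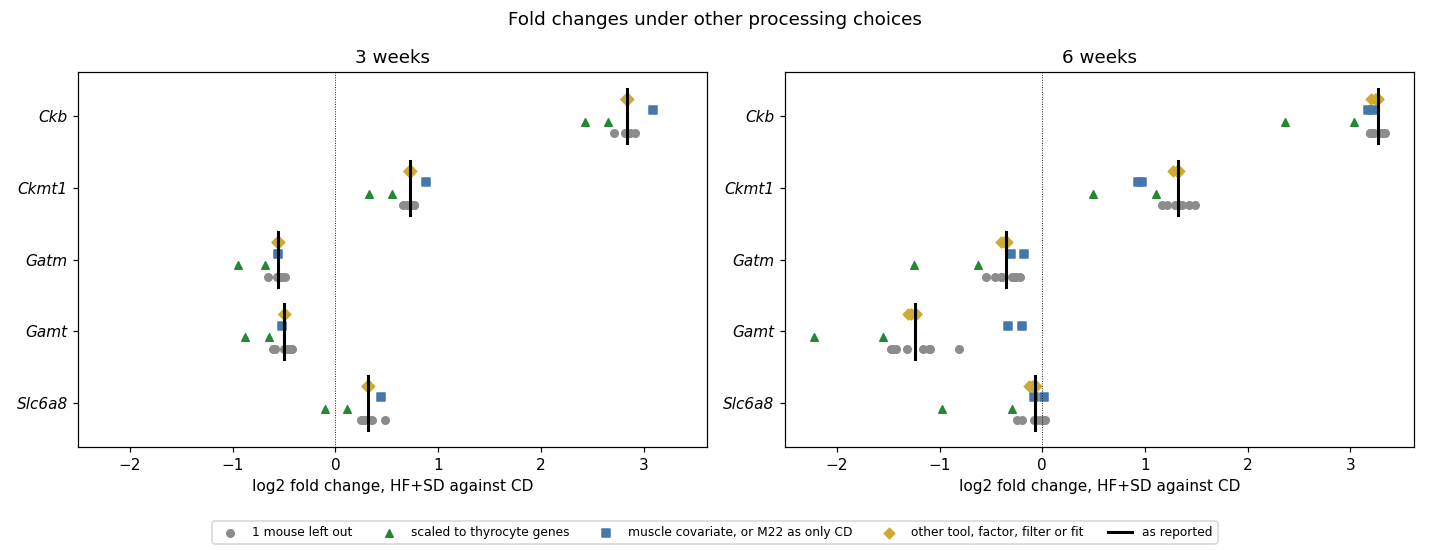
Log2 fold changes of the 5 genes as reported (vertical bars) and under other choices of tool, scaling, filter, samples and covariate (symbols), at 3 weeks and 6 weeks. Ckb stays between 2.37 and 3.34 at both times, Ckmt1 stays above 0, and Slc6a8 crosses 0 at both times.

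Markers of thyrocytes and of other cell types were read beside the kinases. Of all tested genes, 9.07% were called higher and 5.78% lower at 3 weeks, and 12.0% and 9.55% at 6 weeks. Thyrocyte markers, of which 4 of 10 were called higher at 3 weeks and 5 of 10 at 6 weeks, summed to 258800 to 309700 CPM in CD mice and 282100 to 314500 CPM in HF+SD mice at 3 weeks, and to 67920 to 102000 and 99840 to 143200 CPM at 6 weeks. Endothelial markers, 5 of 5 called higher at both times, summed to 332 to 430 CPM in CD mice and 611 to 890 CPM in HF+SD mice at 3 weeks, and to 272 to 338 and 935 to 1009 CPM at 6 weeks. Smooth muscle markers, of which 2 of 6 and 4 of 6 were called higher, summed to 110 to 127 and 114 to 185 CPM at 3 weeks and to 168 to 192 and 254 to 312 CPM at 6 weeks. Brown adipocyte markers were lower, with 5 of 5 tested genes called lower at 3 weeks (126 to 270 CPM in CD mice, 17.2 to 78.6 CPM in HF+SD mice) and 4 of 4 at 6 weeks (287 to 623 and 18.2 to 83.9 CPM). Markers of neurons and glia summed to 78.8 to 109 and 83.4 to 103 CPM at 3 weeks and to 100.3 to 127 and 94.6 to 131 CPM at 6 weeks, with 0 of 8 called higher at either time and 1 of 8 called lower at 3 weeks and 3 of 8 at 6 weeks. White adipocyte markers were called lower in 4 of 5 genes at both times, and macrophage markers were called higher in 0 of 5 genes at 3 weeks and 4 of 5 at 6 weeks. Of 4 C cell markers, 1 was called higher and 1 lower at 3 weeks and 2 lower at 6 weeks, and of 3 parathyroid markers none was called at either time. No marker of these lists was at 0 in a whole group, and their part in the kinase results was not tested.

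Across the 16 libraries, with log2 CPM centred within each time point, the gene most like Ckb of 17023 compared was A530084C06Rik (Pearson r = 0.986), followed by F10, coagulation factor X (0.986), Sod3, extracellular superoxide dismutase (0.984), Mybpc3, cardiac myosin-binding protein C (0.984), Card9, an adaptor of innate immune receptors (0.983), and Hydin, a protein of motile cilia (0.983). These libraries share the diet difference that chose Ckb, and r is given as a description only. Of the other 4 genes, Ckmt1 had r = 0.90 at place 517, Slc6a8 0.26, Gatm -0.59 and Gamt -0.66. Over the 6 genes the log2 fold changes ran from 1.93 to 5.65 at 3 weeks and from 2.62 to 8.72 at 6 weeks. Both upper ends were those of Mybpc3, whose mean in CD mice was only 0.0519 CPM at 3 weeks and 0.0215 CPM at 6 weeks. The CD means of A530084C06Rik, F10 and Hydin were also low, at 0.571 to 0.882 CPM. Those of Sod3 and Card9 were 5.33 to 131 CPM.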

How the data were processed

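Poly(A) RNA of 16 mouse thyroids was sequenced as read pairs. The authors deposited raw counts per gene, 1 column per mouse, and a normalized signal, the count divided by 1 size factor per library. The submitters' processing notes list Trim Galore 0.6.7, STAR, DESeq2 1.36.0, R 4.1.0 and mm39 without roles. How reads were counted, with which strand setting, annotation and gene filter, is not given in the sources used here. No total or other row without a gene entered the library sizes.

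The deposited counts were compared between diets at each time by edgeR 4.0.16 in R 4.3.3 (TMM, filterByExpr, glmQLFit, glmQLFTest), adjusted over all tested genes. Called means an adjusted p below 0.05. Exact two-sided permutation tests used log2 CPM with a prior count of 2. Identifiers were matched to GENCODE M21 for names (20841 of 21640) and exon lengths, and 4 of the 5 genes matched RefSeq promoters. The deposited signal served as 1 alternative for levels per kb. Genes and lists were chosen with earlier results of these data known. Of 62 list entries 59 were found, and of 70 marker entries 69. Besides the 5 genes and the core lists, up to 6 pathway genes of lowest adjusted p per direction and time were named, among those called with a log2 fold change beyond 1 in size, and the 6 genes most like Ckb. Alternatives were DESeq2 1.42.0, its size factors in edgeR, scaling to 9 thyrocyte genes, no filter or at least 10 counts per library, 1 fit of 16 libraries, a muscle covariate (mean log2 CPM of 12 genes) and each mouse left out. Scaling to 4 transcription factor genes and M22 as the only CD mouse were added after seeing the data. With M22 as the only CD mouse the spread among CD mice cannot be measured, so only effect sizes are given. The study used fewer CD mice at 6 weeks than were deposited and does not name them, so all deposited mice were used. The fitting scripts were tested on simulated counts. The result of 1 gene of the pathway lists is not reported here.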

Additional observations from a re-analysis of the deposited data

Results flagged for a closer look

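Within a group of 4 mice, 6 values of named genes stood apart from the other 3 by Dixon's criterion, out of 80 groups checked, and chance alone flags about 1 in 20. On the CD at 3 weeks these were Slc6a8 in M55 (121.3 CPM, next 84.5), Ckmt2 in M96 (0.260 CPM, next 0.0248), Alpl in M96 (6.579 CPM, next 4.80) and Amt in M54 (36.53 CPM, next 23.2). On the CD at 6 weeks it was Slc6a9 in M22 (23.82 CPM, next 12.2). On the HF+SD at 6 weeks it was Ckmt2 in M5 (40.21 CPM, next 7.63), the HF+SD mouse with most muscle reads.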

How the results depend on the processing

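Ckb, which was chosen by these comparisons, kept its direction under all alternatives. Apart from fits with a mouse left out, it was at 2.43 (9 thyrocyte genes) to 3.09 (muscle covariate) at 3 weeks. At 6 weeks it was at 2.37 (9 thyrocyte genes) to 3.27 (no filter), with 3.04 relative to 4 transcription factor genes. Under the 9-gene scaling the log2 fold changes were Ckmt1 0.32, Gamt -0.89, Slc6a8 -0.10, Alpl -0.32 and Slc25a4 -0.043 at 3 weeks, Ckmt1 0.50, Gatm -1.25, Gamt -2.22 and Slc6a8 -0.98 at 6 weeks, and the diet by time difference of Gatm -0.31. Under the 4-gene scaling they were Ckmt1 0.55, Gatm -0.69 and Alpl -0.090 at 3 weeks, and Ckmt1 1.11 and Gamt -1.55 at 6 weeks. The muscle covariate gave Gatm -0.56, Ckm -0.14 and Alpl -0.10 at 3 weeks, Slc6a8 0.013 and Alpl 0.54 at 6 weeks, and a diet by time difference of Gamt of 0.31. In 1 fit of all 16 libraries Gatm was -0.56 at 3 weeks and Gamt -1.30 at 6 weeks, and DESeq2 gave Gamt -1.28. Against M22 alone, Ckm was 1.29, Ckmt2 1.57, Alpl 0.65, Ak1 0.49 and Slc25a4 0.38. The cause of these moves was not tested.

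With 1 mouse left out, Gatm ranged from -0.66 to -0.50, Slc6a8 from 0.24 to 0.48 and Alpl from -0.11 to 0.21 at 3 weeks, and Gamt from -1.47 to -0.81, Slc6a8 from -0.25 to 0.025 and Alpl from -0.51 to 0.013 at 6 weeks. The diet by time difference ranged from 0.43 to 0.74 for Ckmt1 and from -0.006 to 0.30 for Gatm. The calls of Gamt at 6 weeks were made without M22 or M43. Pathway genes with a log2 fold change beyond 1 numbered 4 higher and 1 lower at 3 weeks, 2 and 2 under the 9-gene scaling, with 2 lower when no fold was required and 1 to 2 lower with a mouse left out. At 6 weeks they numbered 6 and 6. They numbered 3 and 33 under the 9-gene scaling, where 40.6% of all genes were lower by that rule. In 1 fit of 16 libraries 10 were lower, and with a mouse left out 1 to 10 (10 without M22, 3 without M48, 1 without M18, M34 or M35). In all, 738 of 875 comparisons with an alternative stayed the same, 21 turned, 71 lost a call, 28 gained a call and 17 moved. For a tested gene, the same means that direction and call were kept, also where a gene was not called and stayed so. Fits with 1 mouse left out, which share most of their mice, are among these comparisons. The total is therefore no measure of how firm the calls are. For Ckb and for its level relative to Ckmt1, it means a shift below the SD between mice. For counts of pathway genes it means a ratio of the counts within a set limit. Low counts limit Gatm and Gamt, with 53 counts in the lowest library. No paired analysis was possible because mouse names are not shared between groups.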
